A study of Homo sapiens with 16 samples.

Results

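The HOXB cluster is a run of 10 homeobox genes, HOXB1 to HOXB9 and HOXB13, on chromosome 17 (48528526 to 48728750, GRCh38, 200.225 kb). All 10 genes were taken by name, of 19970 protein-coding genes on chromosomes 1 to 22 and X, and each was read in every library. HOX proteins are transcription factors that give cells their position along the head-to-tail axis. The genes lie in the order in which they are used, with HOXB1 the most anterior and HOXB13 the most posterior. HOX clusters are classical targets of Polycomb repressive complex PRC2, whose enzyme EZH2 methylates lysine 27 of histone H3 and so makes the mark H3K27me3. JARID2 is an accessory subunit of the same complex.

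The study mapped these proteins and the mark by chromatin immunoprecipitation and sequencing (ChIP-seq) in 2 established human liver lines. THLE-2 is labelled as normal liver epithelium and is an immortalised line, and HepG2 is a liver carcinoma line. The 8 immunoprecipitated (IP) libraries form 4 groups of 2 replicates: EZH2 in THLE-2, H3K27me3 in THLE-2, JARID2 in THLE-2 and JARID2 in HepG2. Each has its own input library, which makes 16 samples, and the target of a library is that of its title and antibody label. The series calls the replicates biological and says no more of their source, and each line stands for 1 cell line. The liver identity of the cells was not checked here, because peak lists hold no expression values, and HepG2 has no EZH2 or H3K27me3 group in the samples used here.

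The deposited lists held from 2112 peaks (EZH2 replicate 1) to 90524 peaks (H3K27me3 replicate 2), made from 7945155 to 39047005 tags per IP library after duplicates were removed. Replicates differed clearly in the size of their lists in 3 of the 4 groups. EZH2 had 2112 peaks of a median width of 2991 bp in replicate 1 against 3690 of 1028.5 bp in replicate 2. H3K27me3 replicate 1 had 46198 peaks against 90524 in replicate 2, and JARID2 in HepG2 had 15738 peaks in replicate 1 against 4090 in replicate 2. JARID2 in THLE-2 had lists of like size, 5356 and 5532 peaks, but they met at few genes. Peaks lay within 2 kb of an end of 840 protein-coding genes in replicate 1, 875 in replicate 2 and 71 in both. Results are therefore given for each library. A gene counted as called when a peak lay within 2 kb of either of its RefSeq ends, and a gene with no call is one where the caller listed no peak, not one shown to be free of the protein. The fold enrichment printed below is the authors' own, IP over local input background, and ranks peaks within a list. All 51 EZH2 and H3K27me3 peaks at the cluster carried a false discovery rate of 100% in the authors' lists, where the median peak of these 4 libraries also had 100%.

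**Figure D1:**
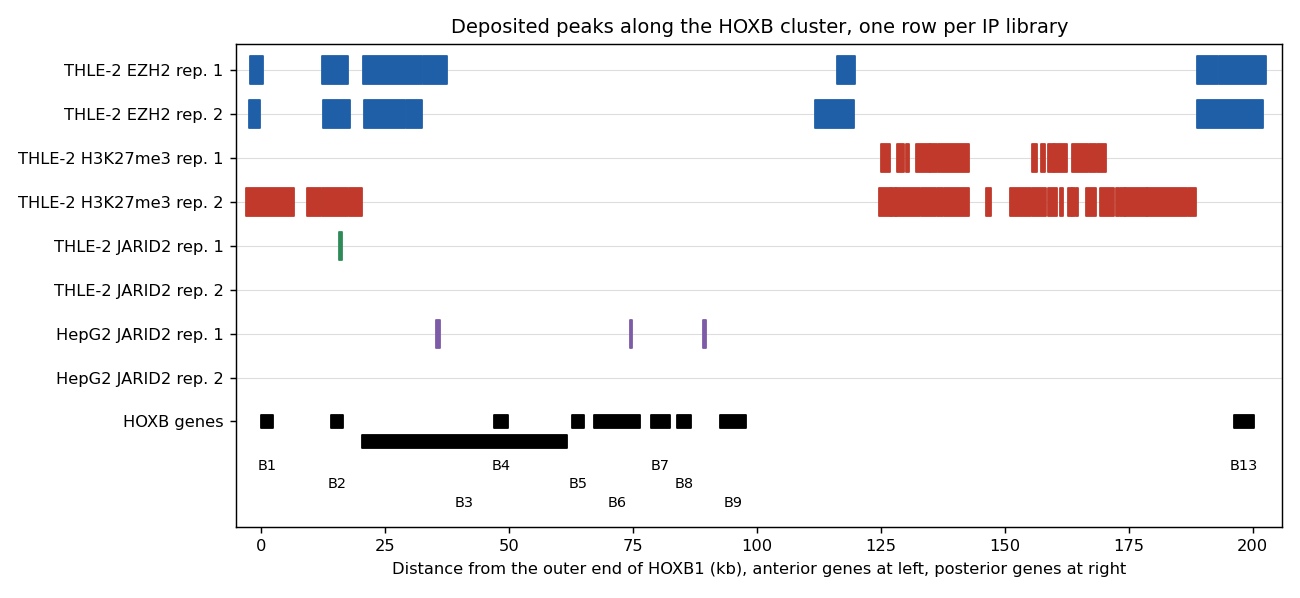
Peaks of the 8 IP libraries along the HOXB cluster, with distance from the outer end of HOXB1 in kb on the x axis, 1 row per library and the genes as black boxes at the bottom. In THLE-2 the EZH2 bars stand at HOXB1 to HOXB3, in the anterior part of the stretch between HOXB9 and HOXB13, and at HOXB13. H3K27me3 bars fill much of the stretch between HOXB9 and HOXB13, and HOXB4 to HOXB9 carry no THLE-2 bar.

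In THLE-2 the peaks divided the cluster into 4 stretches. EZH2 peaks stood at the anterior genes in both replicates, beside HOXB1, over HOXB2 and over the lower-coordinate part of HOXB3. The genes from HOXB4 to HOXB9 had no peak of EZH2, H3K27me3 or JARID2 in any of the 6 THLE-2 libraries. In the gene-poor stretch between HOXB9 and HOXB13, H3K27me3 peaks were found in both replicates, and its anterior part held an EZH2 peak in both. EZH2 peaks then covered HOXB13 and its neighbours PRAC1 and PRAC2, and no H3K27me3 peak lay over HOXB13.

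The promoters of 5 genes that lie within these stretches show DNA under peaks of different targets and, for HOXB-AS3, DNA under no peak. The RefSeq promoter table (GRCh38.p14, windows of 300 bases around a listed start of a gene) matched 1 of the 10 HOXB genes, HOXB1. It also matched the 6 non-HOX genes of the cluster that were looked up, which are HOXB-AS1 to HOXB-AS4, PRAC1 and PRAC2. The windows printed for HOXB-AS3 and PRAC2 lie inside these genes, away from their lower-coordinate ends. RefSeq places HOXB-AS3 at 48590420 to 48606414 and PRAC2 at 48718666 to 48724758. HOXB1 stands for the anterior end, HOXB-AS1 for the site with peaks of all 3 THLE-2 targets, HOXB-AS2 for EZH2 without the mark inside HOXB3, HOXB-AS3 for the stretch without THLE-2 peaks, and PRAC2 for the posterior end. Capitals mark CG dinucleotides, and each line runs 5′ to 3′ on the gene's own strand.
HOXB1: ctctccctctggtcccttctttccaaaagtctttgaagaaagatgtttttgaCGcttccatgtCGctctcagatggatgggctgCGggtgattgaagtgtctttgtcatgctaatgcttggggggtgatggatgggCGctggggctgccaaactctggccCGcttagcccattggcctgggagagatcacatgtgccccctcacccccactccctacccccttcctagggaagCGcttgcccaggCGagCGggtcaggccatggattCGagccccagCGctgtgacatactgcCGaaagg
HOXB-AS1: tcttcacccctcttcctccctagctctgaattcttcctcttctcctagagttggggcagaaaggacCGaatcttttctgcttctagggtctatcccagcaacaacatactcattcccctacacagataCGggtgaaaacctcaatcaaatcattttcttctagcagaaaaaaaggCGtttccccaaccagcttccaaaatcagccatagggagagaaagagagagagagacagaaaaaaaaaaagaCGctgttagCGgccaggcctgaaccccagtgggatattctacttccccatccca
HOXB-AS2: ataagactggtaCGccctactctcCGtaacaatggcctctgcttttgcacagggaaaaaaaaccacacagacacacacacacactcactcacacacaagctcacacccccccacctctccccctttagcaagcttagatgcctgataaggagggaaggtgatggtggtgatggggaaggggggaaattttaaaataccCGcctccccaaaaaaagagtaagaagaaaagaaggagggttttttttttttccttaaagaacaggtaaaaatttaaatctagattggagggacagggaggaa
HOXB-AS3: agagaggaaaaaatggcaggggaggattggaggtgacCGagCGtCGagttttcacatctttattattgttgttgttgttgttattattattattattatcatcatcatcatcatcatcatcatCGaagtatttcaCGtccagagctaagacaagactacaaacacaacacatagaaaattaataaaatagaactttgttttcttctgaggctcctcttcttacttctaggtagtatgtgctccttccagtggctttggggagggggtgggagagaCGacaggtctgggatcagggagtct
PRAC2: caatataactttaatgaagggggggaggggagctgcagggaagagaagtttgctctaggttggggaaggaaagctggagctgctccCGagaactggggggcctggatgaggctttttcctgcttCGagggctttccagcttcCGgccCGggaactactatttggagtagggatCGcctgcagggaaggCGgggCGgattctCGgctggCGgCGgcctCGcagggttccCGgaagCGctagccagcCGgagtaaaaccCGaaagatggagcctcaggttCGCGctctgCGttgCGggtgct
The HOXB1 promoter lies at chr17:48530962-48531261 on the minus strand and holds 11 CG dinucleotides. All 300 of its bases were inside an H3K27me3 peak of replicate 2, and none were inside an EZH2 peak of either replicate. The HOXB-AS1 promoter, at chr17:48544101-48544400 on the plus strand inside HOXB2, holds 5 CG dinucleotides. Its 300 bases were inside EZH2 peaks of both replicates and the H3K27me3 peak of replicate 2, and 161 of them were inside the JARID2 peak of THLE-2 replicate 1. The HOXB-AS2 promoter (chr17:48555907-48556206, plus strand, 3 CG dinucleotides) was covered by EZH2 in both replicates and by no other library. The HOXB-AS3 promoter (chr17:48595708-48596007, plus strand, 6 CG dinucleotides) was covered by no library. The PRAC2 promoter shown (chr17:48723442-48723741, plus strand) is the one of 2 in the table with more CG dinucleotides, 19, and was covered by EZH2 in both replicates and by no other library.

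The median over 34961 promoters of the same length was 14 CG dinucleotides, and 45.2% of them held fewer than the HOXB1 promoter, 29.6% fewer than HOXB-AS1, 18.1% fewer than HOXB-AS2, 33.6% fewer than HOXB-AS3 and 57% fewer than the PRAC2 promoter shown. Of those not printed, the other PRAC2 promoter held 10 and PRAC1 9, both inside EZH2 peaks of both replicates, and the HOXB-AS4 promoters, which no library covered, held 5 and 1. Exact words were counted on both strands with overlapping matches. CGCG occurred 1 time in the PRAC2 promoter shown and in none of the other 4 printed, nor in the second PRAC2 promoter, while 49.9% of all promoters held it. GAGAG occurred 5 times in HOXB-AS1, 3 times in HOXB1, 2 times each in HOXB-AS2 and HOXB-AS3 and not in the PRAC2 promoter shown, although the second PRAC2 promoter held 5, and 61.6% of all promoters held it. CCGCC occurred 4 times in the PRAC2 promoter shown, 1 time in the second, 1 time in HOXB-AS2 and not in the other 3 printed, against 59.2% of all promoters. The covered and the uncovered promoters thus overlapped in their CG counts: HOXB-AS3, with no peak, had more than HOXB-AS1 and HOXB-AS2, which lay inside EZH2 peaks.

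EZH2 peaks called 4 of the 10 HOXB genes in replicate 1 and the same 4 in replicate 2: HOXB1, HOXB2, HOXB3 and HOXB13. Over all protein-coding genes the share called was 5.92% in replicate 1, 6.54% in replicate 2 and 4.88% in both. The other 6 genes had no EZH2 peak at an end in either replicate. Of the 29 HOX genes outside the cluster, 20 (69%) were called by EZH2 in both replicates. These are counts of the lists, and no test of the difference was made.

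**Figure D2:**
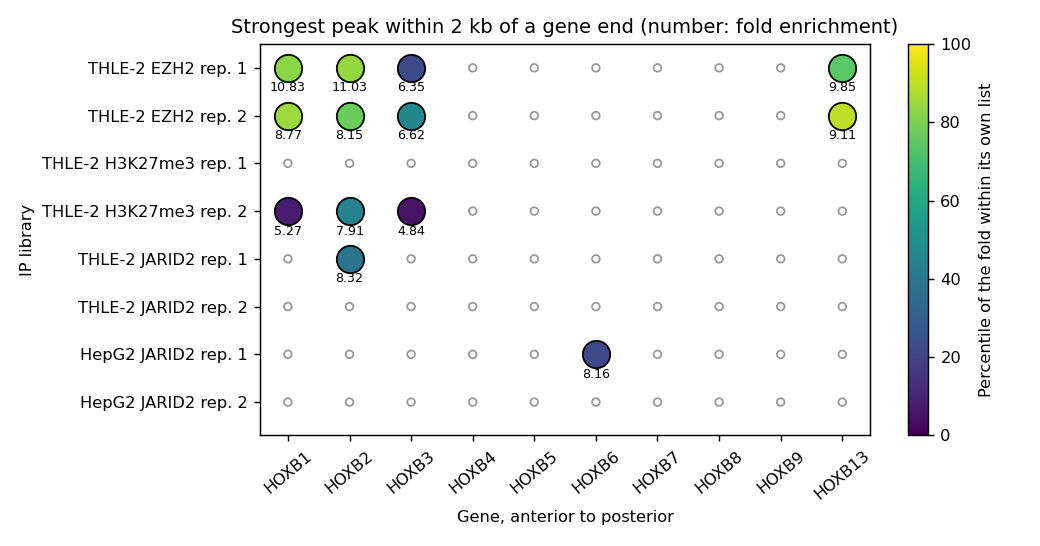
Strongest peak within 2 kb of an end of each HOXB gene (x axis, anterior to posterior) in each IP library (y axis), with the authors' fold enrichment printed under each filled circle, colour for its percentile within its own list and small open circles for no peak. Filled circles fall at HOXB1, HOXB2, HOXB3 and HOXB13, plus 1 at HOXB6 in HepG2 JARID2 replicate 1, and 5 genes have none.

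HOXB1 (48528526 to 48531011), which sets the identity of a hindbrain segment, had an EZH2 peak at chr17:48526259-48528941 in replicate 1 with a fold enrichment of 10.83, above 82.6% of that list. In replicate 2 the peak lay at chr17:48526170-48528381 with a fold of 8.77, above 84.9% of the list. Both peaks overlapped another gene, LOC105371808, the only one that the replicate 2 peak overlapped. Measured from the outer end of HOXB1, their summits lay at -1.488 kb and -1.416 kb, outside HOXB1. Both peaks sat at the lower-coordinate end of HOXB1. On the minus strand this end lies opposite to the promoter printed above. The replicate 2 peak stopped 145 bp short of the gene, and the replicate 1 peak reached over 16.7% of it.

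HOXB2 (48542655 to 48545109), which acts beside HOXB1 in the hindbrain, was the HOXB gene with the most libraries, 4 of 8. Its EZH2 peaks, chr17:48540896-48546113 and chr17:48540956-48546496, covered the whole gene in both replicates, with folds of 11.03 (above 83.7% of the list) and 8.15 (above 77.3%). The H3K27me3 peak of replicate 2, chr17:48540876-48546157, had 1290 tags, a score of 1560.56 and a fold of 7.91. Its edges lay 20 bp and 44 bp from those of the EZH2 peak of replicate 1, and 80 bp and 339 bp from those of replicate 2. Further H3K27me3 peaks of the same library, chr17:48537889-48540714 and chr17:48546209-48548951, flanked it on both sides, so the mark ran on past the ends of the EZH2 peaks. JARID2 in THLE-2 replicate 1 had a peak of 641 bp inside the gene (chr17:48544240-48544880) with 17 tags, a fold of 8.32 (above 38.3% of the list) and a false discovery rate of 15.93%. THLE-2 JARID2 replicate 2 had none, and its nearest peak was 194 kb away.

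HOXB3 (48548870 to 48590241), a gene of the hindbrain and pharynx, spans 41.372 kb in RefSeq and encloses HOXB4. EZH2 peaks covered 40.8% of it in replicate 1 and 28.6% in replicate 2, all from its lower-coordinate end inwards. The widest, chr17:48549139-48561095 in replicate 1, was 11957 bp and ranked 44 of 2112 by width, with a fold of 6.35 (above 21.9% of the list). In replicate 2 a peak of 8441 bp began at 48549228, ranked 117 of 3690 by width and had a fold of 6.62 (above 46.1%). These were wide peaks of low or middling fold, while those of HOXB1 and HOXB2 were narrower and stood higher in their lists. The mark reached the gene by 82 bp in H3K27me3 replicate 2, with a fold of 4.84 (above 4.84% of the list), and the EZH2 peaks began 187 bp and 276 bp past the end of that H3K27me3 peak.

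HOXB13 (48724763 to 48728750), a gene of the prostate and the hindgut, had EZH2 over its whole length in both replicates. Replicate 1 had peaks of 4200 bp and 9532 bp, and that over the gene, chr17:48721736-48731267, had a fold of 9.85 (above 74.4% of the list). Replicate 2 had 1 peak of 13314 bp, chr17:48717294-48730607, which ranked 32 of 3690 by width, with 1832 tags and a fold of 9.11 (above 90.1%). The replicates thus gave the same extent as 2 peaks in one list and 1 in the other. Their scores (-10 times the log10 of the caller's p) differed, at 617.92 for the peak in replicate 1 and 80.7 in replicate 2. The same peaks held PRAC1 and PRAC2, named for their expression in prostate, rectum and colon, and the hairpin of MIR3185.

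The H3K27me3 calls came from 1 library. Replicate 2 called HOXB1, HOXB2 and HOXB3, 3 of 10 genes, beside 19.1% of all genes, and replicate 1 called none, beside 7.7%. In both replicates no HOXB gene was called, beside 6.75% of all genes, and the same held for all 29 HOX genes of the other clusters. At HOXB1 the replicate 2 peak was 9580 bp wide and covered the gene and both its windows, at a fold of 5.27 that stood above 8.13% of the list. HOXB2 at 7.91 stood above 44.4%, so the HOXB2 peak was the highest of the 3 genes within its list.

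Between HOXB9 and HOXB13, a gap of 98.404 kb, the mark was found in both replicates. H3K27me3 peaks covered 27.1% of the gap in replicate 1 (13 peaks) and 51% in replicate 2 (21 peaks). All 13 peaks of replicate 1 overlapped one of replicate 2, with 83% of the bases of replicate 1 and 44.1% of those of replicate 2 shared. Their folds ran from 6.37 to 13.52 (median 11.59) in replicate 1 and from 5.66 to 24.79 (median 9.6) in replicate 2. Parts of the gap were thus where the 2 H3K27me3 libraries overlapped, although they shared no called HOXB gene. The strongest of these peaks, chr17:48702843-48707270 in replicate 2, lay inside LINC02086, a long non-coding RNA gene that spans most of the gap, and replicate 1 had no peak there.

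EZH2 peaks in the gap lay at 2 places, in its anterior part and at its posterior end. A peak over LINC03057 and LINC02086 lay at chr17:48644633-48648240 in replicate 1 and at chr17:48640237-48648109 in replicate 2, with folds of 6.98 and 5.47. EZH2 covered 11% and 15.6% of the gap in the 2 replicates. No EZH2 base in the gap lay inside an H3K27me3 peak of either replicate. On the posterior side the last H3K27me3 peak of replicate 2 ended at 48717149, and EZH2 began 210 bp and 144 bp beyond it in replicates 1 and 2.

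**Figure D3:**
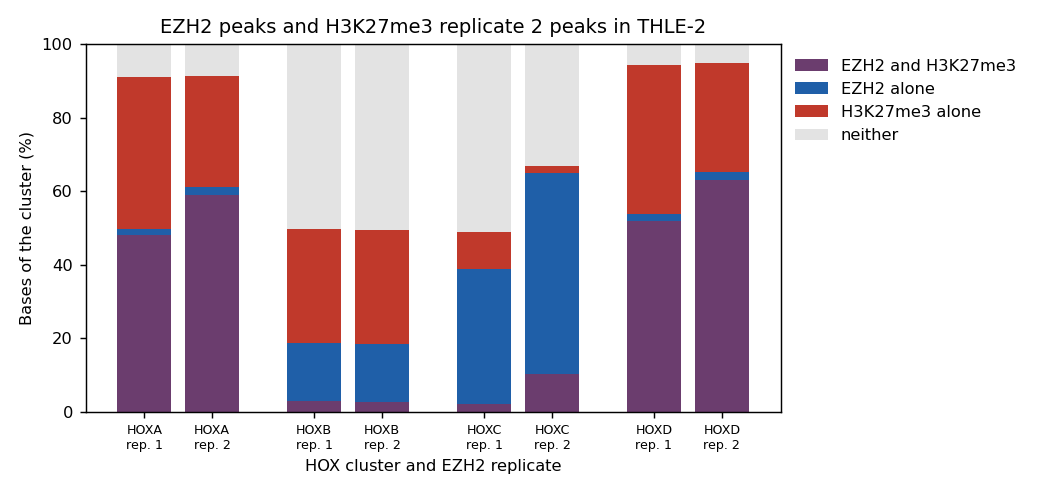
Share of the bases of each HOX cluster (y axis, percent) under EZH2 and H3K27me3 replicate 2 peaks together, EZH2 alone, H3K27me3 alone or neither, with 1 bar per EZH2 replicate in THLE-2. The band of shared bases is 2.81% and 2.74% of HOXB, against 47.9% and 58.9% of HOXA.

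Across the cluster, EZH2 and the mark covered mostly different bases. With H3K27me3 replicate 2, 15.1% of the bases of EZH2 replicate 1 and 15% of those of replicate 2 were shared. The same share was 96.4% and 96.5% in HOXA, 96.5% and 96.4% in HOXD, and 5.18% and 15.6% in HOXC. HOXB was therefore close to HOXC and far from HOXA and HOXD in this measure. Of the EZH2 peaks at HOXB, 2 of 7 in replicate 1 and 2 of 6 in replicate 2 overlapped an H3K27me3 peak of replicate 2, against 66.4% and 49.4% of all EZH2 peaks. Those 2 were the peaks at HOXB1 and HOXB2, covered from 99.1% to 100%, and the rest were covered by 0 bases. With H3K27me3 replicate 1 no EZH2 peak at the cluster overlapped, beside 9.95% and 12.4% of all EZH2 peaks. Both EZH2 lists come from other IP libraries and inputs than the H3K27me3 lists, and the part of peak calling in this separation was not tested.

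HOXB4, HOXB5, HOXB6, HOXB7, HOXB8 and HOXB9 lie in a stretch of 74.088 kb (48566149 to 48640236, 37% of the cluster) that held no peak of any of the 6 THLE-2 libraries. The longest such stretch was 2.109 kb in HOXA, 1.375 kb in HOXD and 24.274 kb in HOXC. H3K27me3 replicate 2 by itself covered 89.1% of HOXA and 92.4% of HOXD. Counting both EZH2 libraries together, the longest stretch was 12.023 kb in HOXA, 7.171 kb in HOXD, 24.274 kb in HOXC and 74.088 kb in HOXB. That of HOXC held 1 HOX gene, HOXC9. Taken singly, EZH2 replicate 1 left 78.484 kb of HOXB uncovered (39.2% of the cluster) and 47.817 kb of HOXC (40.8%). The HOXC stretch then held HOXC9, HOXC10 and HOXC11, and one of 25.142 kb in HOXA held HOXA5, HOXA6 and HOXA7. Replicate 2 left 79.158 kb in HOXB, 24.274 kb in HOXC and 19.849 kb in HOXA. A run of HOX genes without EZH2 was thus not particular to HOXB in replicate 1. The nearest EZH2 peak lay 9.36 to 33.6 kb from the 6 genes HOXB4 to HOXB9 in replicate 1 and 13.9 to 34.7 kb in replicate 2. For H3K27me3 the distances were 27.2 to 60.1 kb and 26.6 to 46.8 kb. HOXB4 promotes the expansion of blood stem cells, HOXB5 acts in the neural crest of the gut, HOXB7 is overproduced in several cancers, HOXB8 can hold myeloid progenitors in an immature state, and HOXB9 patterns the thoracic skeleton. Over all 8 libraries, 5 genes (HOXB4, HOXB5, HOXB7, HOXB8 and HOXB9) had no peak at an end, as had 56.6% of all protein-coding genes, and 1 of the 29 other HOX genes.

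The stretch without THLE-2 peaks also held HOXBLINC, HOXB-AS3, HOXB-AS4 and the microRNA genes MIR10A and MIR196A1. Their mature 5p products are printed with that of MIR3185, whose hairpin lay under EZH2, because the 3 microRNA genes of the cluster fell on both sides of the pattern. Capitals mark the seed, bases 2 to 8, and the sequences are those of RefSeq (GRCh38.p14).
hsa-miR-10a-5p: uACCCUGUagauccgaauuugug
hsa-miR-196a-5p: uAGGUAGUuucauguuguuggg
hsa-miR-3185: aGAAGAAGgcggucggucugcgg
The 3 seeds differed from one another. The MIR10A hairpin (chr17:48579838-48579947, minus strand) and the MIR196A1 hairpin (chr17:48632490-48632559, minus strand) had 0 bases in a peak of any of the 8 libraries. MIR196A1 makes miR-196a, which is known to target HOX transcripts. The 68-base MIR3185 hairpin (chr17:48724408-48724475, minus strand) was wholly inside EZH2 peaks in both replicates and inside no other library's peaks.

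JARID2 had 1 peak in the cluster in THLE-2 replicate 1, 3 in HepG2 replicate 1 and 0 in replicate 2 of either line. The full lists of these replicate 1 libraries covered 3.38 Mb in THLE-2 and 11.5 Mb in HepG2. Whether the cluster held fewer JARID2 peaks than other stretches of its length was not tested. In THLE-2, replicate 1 called HOXB2 alone (1 of 10 genes, beside 4.21% of all genes) and replicate 2 called none (beside 4.38%). In HepG2, replicate 1 called HOXB6 alone (1 of 10, beside 22.5%) and replicate 2 called none (beside 0.716%). No HOXB gene was called by JARID2 in both replicates of a line, beside 0.356% of all genes in THLE-2 and 0.165% in HepG2. Of the 29 HOX genes elsewhere, 12 (41.4%) were called in HepG2 replicate 1, 7 of them in HOXA.

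The 3 JARID2 peaks of HepG2 replicate 1 lay at other places than the 1 peak of THLE-2. The strongest, chr17:48563795-48564679 within HOXB3, had 24 tags, a fold of 13.19 (above 81.6% of its list) and a false discovery rate of 0.49%. It lay more than 2 kb from either end of HOXB3 and so did not call the gene. It fell inside the fourth EZH2 peak of THLE-2 replicate 1, chr17:48561242-48566148, and outside all EZH2 peaks of replicate 2. The peak at HOXB6, a gene expressed in developing lung and limb, was chr17:48602861-48603462, with 16 tags, a fold of 8.16 (above 21.9%) and a false discovery rate of 1.56%. The remaining peak, chr17:48617665-48618231 between HOXB8 and HOXB9, had 14 tags and a fold of 10.55. Those at HOXB6 and between HOXB8 and HOXB9 thus fell in the stretch where THLE-2 had no peaks of any target. The nearest peak to HOXB4 to HOXB9 in HepG2 JARID2 replicate 2 was 328 to 376 kb away, so no peak of the first replicate was met by one of the second.

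**Figure D4:**
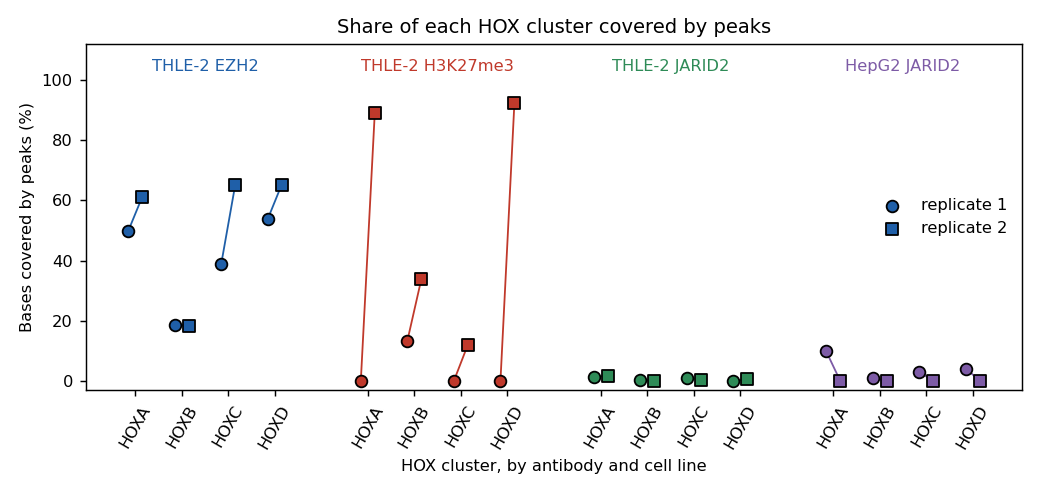
Share of the bases of each HOX cluster (y axis, percent) covered by peaks, by antibody and cell line, with a circle for replicate 1, a square for replicate 2 and a line joining them. HOXB has the closest pair of EZH2 values, 18.6% and 18.3%, and is the cluster where H3K27me3 replicate 1 has covered bases, 13.3%.

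Measured as covered bases, EZH2 took 18.6% of HOXB in replicate 1 and 18.3% in replicate 2, a mean of 18.5% ± 0.221 (SD, n = 2). The replicates shared 31.674 kb, 84.9% of the bases of replicate 1 and 86.3% of those of replicate 2. H3K27me3 took 13.3% and 33.8% (23.6% ± 14.5, SD, n = 2), JARID2 in THLE-2 0.32% and 0% (0.16% ± 0.226, SD, n = 2), and JARID2 in HepG2 1.03% and 0% (0.513% ± 0.725, SD, n = 2). The H3K27me3 libraries fell on either side of the EZH2 libraries. EZH2 covered less of HOXB than of HOXA (49.7% and 61%), HOXC (38.8% and 65%) or HOXD (53.8% and 65.2%) in each replicate. H3K27me3 replicate 1 covered 0% of HOXA, HOXC and HOXD, so its 13.3% of HOXB, all between HOXB9 and HOXB13, was its whole cover of the 4 clusters.

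From anterior to posterior, EZH2 covered 47.9% and 37% of the 46.981 kb from HOXB1 up to HOXB4 in the 2 replicates, 0% and 0% of the 50.852 kb from HOXB4 to HOXB9, then 11% and 15.6% of the gap and 100% and 100% of HOXB13. H3K27me3 replicate 2 covered 37.2% of the first stretch, 0% of the second and 51% of the gap. Between HOXB1 and HOXB2 it covered 75.2% of the bases, against 15.1% and 14.6% for the EZH2 replicates, and between HOXB2 and HOXB3 98.6% against 26.7% and 36.9%. JARID2 in HepG2 replicate 1 covered 1.88% of the first stretch, 2.3% of the second and 0% of the gap.

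With 2 libraries in each group, the smallest two-sided p of an exact permutation test is 0.3333. EZH2 covered 18.3 percentage points more of the cluster than JARID2 in THLE-2, with no overlap of the groups (exact permutation p = 0.3333, two-sided, n = 2 per group). EZH2 covered less than H3K27me3 by a difference in means of -5.07 percentage points (exact permutation p = 1, two-sided, n = 2 per group), and the sign turned to 5.16 without H3K27me3 replicate 2. JARID2 covered 0.353 percentage points more in HepG2 than in THLE-2 (exact permutation p = 1, two-sided, n = 2 per group), and the sign turned to -0.16 without HepG2 replicate 1. Only the first of these 3 differences was larger than the spread between replicates.

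**Figure D5:**
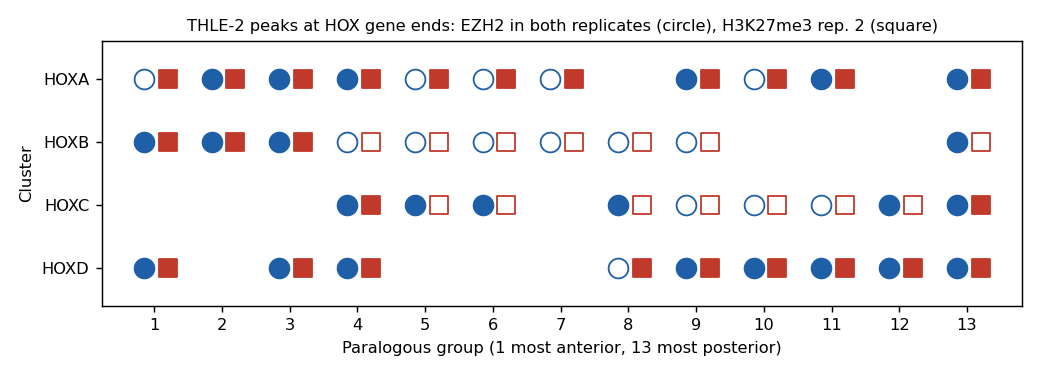
The 39 HOX genes by cluster (y axis) and paralogous group (x axis, anterior to posterior), with a filled circle for an EZH2 peak at a gene end in both THLE-2 replicates and a filled square for an H3K27me3 peak in replicate 2. HOXB has a run of 6 open circles and squares from HOXB4 to HOXB9, and HOXB13 has a filled circle with an open square.

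Set against their paralogues, which are the genes of the same number in the other clusters, the HOXB genes without an EZH2 call were those of groups 4 to 9. In group 4, EZH2 called HOXA4, HOXC4 and HOXD4 in both replicates and not HOXB4. In groups 5, 6 and 8 it called HOXC5, HOXC6 and HOXC8 in both replicates, while HOXA5, HOXA6 and HOXD8 were called in replicate 2 alone. In group 9 it called HOXA9 and HOXD9 in both replicates, and HOXC9, like HOXB9, in neither. In group 7 it called HOXA7 in replicate 2 alone and HOXB7 in neither replicate. In the groups whose HOXB member was called, EZH2 called 2 of 3 genes of group 1, 2 of 2 of group 2, 3 of 3 of group 3 and 4 of 4 of group 13 in both replicates. Groups 10, 11 and 12, which have no HOXB member, had 1 of 3, 2 of 3 and 2 of 2 called, and no test between groups was made. H3K27me3 replicate 2 called 3 of the 4 group 13 genes, all but HOXB13.

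Some other genes shared the exact set of libraries of a HOXB gene. HOXB1 and HOXB3 were both called by the 2 EZH2 libraries and H3K27me3 replicate 2, as were 307 genes outside the cluster, and 801 genes (4.01%) had these 3 with or without further libraries. By mean difference in the percentile of their folds over these 3 libraries, the closest to HOXB1 were EPHA8 (3.6 percentile points), LOC124902211 (4.91) and SREBF2 (5.79). The closest to HOXB3 were EFNA3 (4.11), ISM1 (4.12) and MAD2L2 (4.55). HOXB2 shared its 4 libraries with 16 genes, of which SKOR1 (15.7 percentile points) and SP9 (16.9) were closest. HOXB13, called by EZH2 alone, shared its 2 libraries with 60 genes, and HOXB6 its 1 library with 2933.

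Of 12 genes for partners and upstream regulators of HOX proteins (among them the MEIS factors, which bind DNA with HOX proteins, the related PKNOX factors and the CDX factors, which switch on HOX genes), EZH2 called 2 in both replicates, beside 4.88% of all genes. MEIS1 had folds of 8.41 and 6.75, and CDX2 had 9.96 and 7.16. H3K27me3 called 3 in both replicates, beside 6.75% of all genes: PKNOX2 (19.68 and 9.23), MEIS3 (9.04 and 10.44) and CDX4 (9.93 and 6.72). JARID2 in HepG2 replicate 1 called 6 of the 12, beside 22.5% of all genes, among them MEIS1 at 12.8 and PKNOX2 at 12.08. HepG2 replicate 2 called none, beside 0.716%. In THLE-2, JARID2 replicate 1 called PKNOX2 and MEIS3, beside 4.21% of all genes, and replicate 2 called none, beside 4.38%.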

How the data were processed

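Per the submitters' processing notes, the authors used cutadapt, Bowtie2 and MACS 1.4.2 with the genome GRCh38. No version of cutadapt or Bowtie2 is given in the sources here. Every IP library was compared with its input by MACS at a p of 1e-05, keeping 1 tag for each position, per the file headers. Each library has its own list, and none is pooled. For each peak the deposited lists hold a tag count, a score (log10 of the MACS p, multiplied by -10), a fold enrichment (a ratio) and a false discovery rate in percent.

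Here peaks were compared with RefSeq gene ends (windows of 2 kb, overlap of at least 1 bp) and merged within a library to count covered bases, in Python 3.11.15 with pandas 2.3.3, numpy 2.4.6, scipy 1.17.1 and matplotlib 3.10.9. The interval code was tested on simulated data. Covered shares were compared by exact permutation of libraries, two-sided, without pairing, since nothing ties same-numbered libraries. Percentiles are the average rank of a peak's fold within its list, in percent. The rank counts the peak itself and tied folds share a value, so "above" a share of a list is approximate. Tag depth limits which peaks could be called, and the lists carry no counting interval. All 10 HOXB genes are named. Genes like them are those with the identical set of libraries and the closest fold percentiles. The members and lists were chosen with earlier results of these data known. Other windows, thresholds, overlaps, peak numbers, cluster limits and left-out replicates were tried. Some genes that these rules would name are not reported here.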

Additional observations from a re-analysis of the deposited data

How the results depend on the processing

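Of 128 recomputed values, 98 stayed within the limits set for no change, 26 moved and 4 changed sign. The limit was a fixed ratio for gene counts, the replicate SD of the group for covered shares, and the sign for differences. These limits were wide for H3K27me3, whose SD was 14.5. The share of its replicate 1 counted as unchanged although it fell from 13.3% to 0% with an equal number of top peaks. It was also 0% from HOXB1 to HOXB9 alone. The EZH2 genes held best: in both replicates the count was 4 under every window, overlap and equal-number setting and without either replicate, and 3 with peaks of a score of at least 100, which lost HOXB13. That score cut took the EZH2 replicate 2 share of the cluster to 8.67%.

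The JARID2 calls held least. THLE-2 JARID2 replicate 1 called 2 genes with 5 kb windows and 0 with the score cut or with the 2112 top peaks of each list. HepG2 JARID2 replicate 1 called 0 with 1 kb windows, 4 with 5 kb windows, 2 over whole genes, and 0 with an overlap of 500 bp, the score cut or the top peaks. The covered shares of both fell to 0% with the score cut and with the top peaks, and so did the difference between the lines, to 0. With the top peaks, H3K27me3 replicate 2 called 1 gene and covered 7.26%, and EZH2 minus H3K27me3 became 14.9 percentage points. From HOXB1 to HOXB9 alone, the shares were 23% and 17.7% for EZH2, 17.9% for H3K27me3 replicate 2, 0.655% for THLE-2 JARID2 replicate 1 and 2.1% for HepG2 JARID2 replicate 1, and EZH2 minus H3K27me3 became 11.4, because the gap with most of the mark was left out. For the other changes the cause was not tested.

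Leaving out 1 library gave 0 to 3 genes for H3K27me3 and 0 to 1 for JARID2 in THLE-2 and in HepG2, where the remaining library alone then made the call. The differences ran from -15.3 to 5.16 (EZH2 minus H3K27me3), from -0.16 to 0.866 (JARID2, HepG2 minus THLE-2) and from 18.2 to 18.5 (EZH2 minus JARID2). With the replicate block, which pairs libraries of the same number, the differences were -5.07, 0.353 and 18.3, with exact permutation p of 1, 1 and 0.5, where 0.5 is the smallest that 2 pairs allow. The libraries share only a number, and no paired call was gained or lost.

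Peak lists hold no depth per base, so absence of a peak in JARID2 libraries of 7945155 to 14627883 tags sets no upper limit on binding.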

Other observations

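The flanks of the cluster differed from each other. In the 20 kb before HOXB1, H3K27me3 peaks covered 8.38% of the bases in replicate 1 and 71.7% in replicate 2, and EZH2 covered 11.3% and 11.1%. In the 20 kb beyond HOXB13 no H3K27me3 peak was listed in either replicate (0%), while EZH2 covered 53.4% and 36.5%. Over 50 kb beyond HOXB13 the mark appeared, with 29.4% and 54.6%, beside 35.1% and 28.4% for EZH2. TTLL6, a tubulin glutamylase gene that lies there, had H3K27me3 peaks at its ends in both replicates, with folds of 20.63 and 15.41. SKAP1, an adaptor gene of T cells before HOXB1, had an H3K27me3 peak at an end in replicate 2, with a fold of 6.69, and not in replicate 1, while the mark covered 23.3% and 23.4% of the gene with its flanks of 2 kb in the 2 replicates. JARID2 had no peak within 50 kb of either side of the cluster except in THLE-2 replicate 2, which covered 2.43% of the 20 kb beyond HOXB13. Outside these flanks, on the far side of SKAP1, lie CBX1 (48070059 to 48101478), which codes for a heterochromatin protein, and SNX11 (48107574 to 48123601). Both had JARID2 peaks at an end in HepG2 replicate 1, with folds of 4.94 and 9.72, as 22.5% of all genes had a peak there. HepG2 replicate 2 had none at either gene.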
